A study of Homo sapiens with 18 samples.

Results

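The S100 proteins examined here were 8 genes chosen by symbol, S100A2, S100A4, S100A6, S100A10, S100A11, S100A13, S100A14 and S100A16, out of the 17017 genes in the deposited table. All 8 were found. The cells were MDA-MB-231, an established human line of triple-negative breast carcinoma (lacking oestrogen and progesterone receptors and amplified HER2), grown in medium with foetal bovine serum, antibiotics and human insulin. They had been transduced with lentiviral pLKO.1 vectors that carried either a scramble control, read here as the treatment labelled SC, or a short hairpin RNA against fibrillarin, labelled SH2 or SH3. Fibrillarin (FBL) adds methyl groups to ribosomal RNA in the nucleolus. The labels do not say which hairpin is the study's knockdown 1 or knockdown 2, and they name no clone. All 3 treatments shared selection in puromycin at 1 µg/ml for 96 h, and cycloheximide at 100 µg/ml for 5 min before lysis, which holds ribosomes in place. Cytoplasmic RNA (IN) was sequenced in 3 libraries per treatment and ribosome footprints (RPF) in 3 more, 18 libraries in all. Nothing in the labels says that replicates were separate cultures, so p-values measure the spread between these samples, which may be technical.

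S100 proteins are small proteins with a pair of EF-hand motifs that form dimers and have no enzymatic activity of their own. Binding of calcium exposes a surface through which most of them hold target proteins, among them annexins and cytoskeletal motors, and some are also secreted and act on cell-surface receptors. S100A4 is known for promoting motility and metastasis of breast cancer cells, S100A10 departs from the family in holding its annexin without calcium, and most S100 genes lie side by side in a cluster on chromosome 1.

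RefSeq places all 8 genes on the minus strand of chromosome 1, though not all side by side. In the order of the annotation S100A10 neighbours S100A11, with THEM4 and TCHHL1 on their outer sides, apart from the others. S100A6, S100A5, S100A4, S100A3, S100A2, S100A16, S100A14 and S100A13 follow each other as neighbouring protein-coding genes. The 100 bases before the start of a transcript were read from RefSeq (GRCh38.p14, minus strand, printed 5′ to 3′ along the gene) for the 5 genes with a called RNA change against SC. They are shown because these S100 genes moved in different directions, as described further on. Capitals mark matches to TATAAA, to GGGCGG or to TGANTCA, the site read by AP-1 factors. CCAAT was searched too, and all 4 motifs were searched on both strands. S100A2 and S100A13 have further starts in the table, and the deposited gene counts do not say which start was used.
S100A4, chr1:153545807-153545906: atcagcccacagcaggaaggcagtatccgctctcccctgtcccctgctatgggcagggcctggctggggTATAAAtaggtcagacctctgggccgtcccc
S100A13, chr1:153627506-153627605: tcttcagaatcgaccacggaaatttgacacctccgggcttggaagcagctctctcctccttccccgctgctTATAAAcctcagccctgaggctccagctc
S100A13, outermost start, chr1:153634362-153634461: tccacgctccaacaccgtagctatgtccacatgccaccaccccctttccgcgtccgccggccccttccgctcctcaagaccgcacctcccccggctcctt
S100A6, chr1:153535992-153536091: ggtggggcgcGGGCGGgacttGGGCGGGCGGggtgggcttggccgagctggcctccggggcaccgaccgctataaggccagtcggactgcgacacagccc
S100A10, chr1:151993860-151993959: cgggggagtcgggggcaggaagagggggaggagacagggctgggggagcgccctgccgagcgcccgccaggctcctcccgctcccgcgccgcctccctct
S100A2, outermost start, chr1:153565845-153565944: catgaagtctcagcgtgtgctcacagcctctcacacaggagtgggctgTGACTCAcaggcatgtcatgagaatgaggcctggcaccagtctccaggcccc

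The letters TATAAA stood 31 bases before the start of S100A4 and 29 bases before 1 of the 3 starts of S100A13, and were found at 2 of the 12 starts that the table lists for the 8 genes, against 4.99% of the 35116 promoters in the table. GGGCGG was found at 3 of the 12 starts, with 3 matches in S100A6, of which the last 2 overlap, and 1 each in S100A11 and S100A16, against 31.3% of all promoters. TGANTCA was found at 1 of the 12 starts, in S100A2, 52 bases before its outermost start, against 2.75% of all promoters. CCAAT was found at 1 of the 12, in S100A16, against 18.1%. The window of S100A10 held none of these letters. These are matches of letters, not sites shown to be used.

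The RNA libraries held 23469830 to 27629488 counts and the footprint libraries 1662705 (SH3 replicate 1) to 6098648 (SC replicate 1), so footprint values rest on fewer counts. FBL RNA was at 388 ± 36.4 CPM with the scramble control (CPM are counts scaled to a common library size with TMM factors within each library kind, mean ± SD, n = 3). It was at 5.67 ± 5.09 CPM with SH2 (1.26, 4.52 and 11.2 in replicates 1 to 3), or 1.46% of the control, and at 3.49 ± 0.612 CPM with SH3, or 0.898%. Of the markers used to check the cell line, vimentin (VIM) was at 5579 CPM and AXL at 1487 CPM in SC RNA, whereas ESR1 had at most 1 count in any library and PGR at most 2. CDH1 had at most 11 counts and SPARC, a listed mesenchymal marker, at most 17. The summed RNA level of the 8 mesenchymal markers ran from 6994 to 8919 CPM in SC. It ran from 8033 to 9355 CPM in SH2 libraries and from 6200 to 7298 CPM in those of SH3. That of the 8 luminal markers, nearly all of it KRT19 and ERBB2, ran from 515 to 715, 476 to 585 and 478 to 524 CPM. Of the markers tested in RNA, SH2 had 2 of 8 mesenchymal ones called higher and 4 called lower, and SH3 had 0 and 4. Of 5 luminal ones, SH2 had 1 called higher and 0 lower, and SH3 had 1 and 1. Of all genes tested in RNA, 61.4% were called in SH2 and 53% in SH3, so these counts are not read as particular to the markers. The part of the markers in the results below was not tested.

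The S100 genes did not move as a block in SH2, where 3 of the 7 tested lay below 0 in RNA and 4 in footprints. In SH3 all 7 lay below 0 in footprints, beside 50.9% of all genes. In SH3 RNA 6 of the 7 did, beside 47.7%. Of the 7 genes with enough counts to test, S100A4 RNA rose and S100A2 and S100A13 RNA fell in SH2, whereas S100A2, S100A6 and S100A10 RNA fell in SH3 and none rose. Among footprints, S100A4 rose and S100A2, S100A6 and S100A13 fell in SH2, and S100A2, S100A4, S100A6, S100A10 and S100A13 fell in SH3. Called means an adjusted p under 0.05 in edgeR's quasi-likelihood test with Benjamini-Hochberg adjustment over all genes tested. In RNA, 3 of the 7 were called with SH2 (1 higher, 2 lower), beside 61.4% of all 12710 genes tested (31.1% higher, 30.4% lower). With the replicate number as a block, by which SC and SH2 libraries deviated together, 5 of the 7 were called, beside 65.7% of genes. With SH3, 3 of the 7 were called, all lower, beside 53% of genes (27.8% higher, 25.2% lower). In footprints, 4 of the 7 were called with SH2 (1 higher, 3 lower), beside 44.2% of 10345 genes (21% higher, 23.2% lower). With SH3, 5 of the 7 were called, all lower, beside 35.9% of genes (16.9% higher, 19% lower). The median footprint change of the 7 genes was -0.41 on the log2 scale with SH3, against -0.014 over all genes, and -0.16 with SH2, against -0.0042. In RNA the medians were 0.11 against 0.012 with SH2 and -0.23 against 0.034 with SH3. The SC libraries serve as the control for both hairpins, so the 2 sets of changes are not independent. In bulk libraries, fewer cells that carry a transcript and less of it per cell cannot be told apart.

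**Figure D1:**
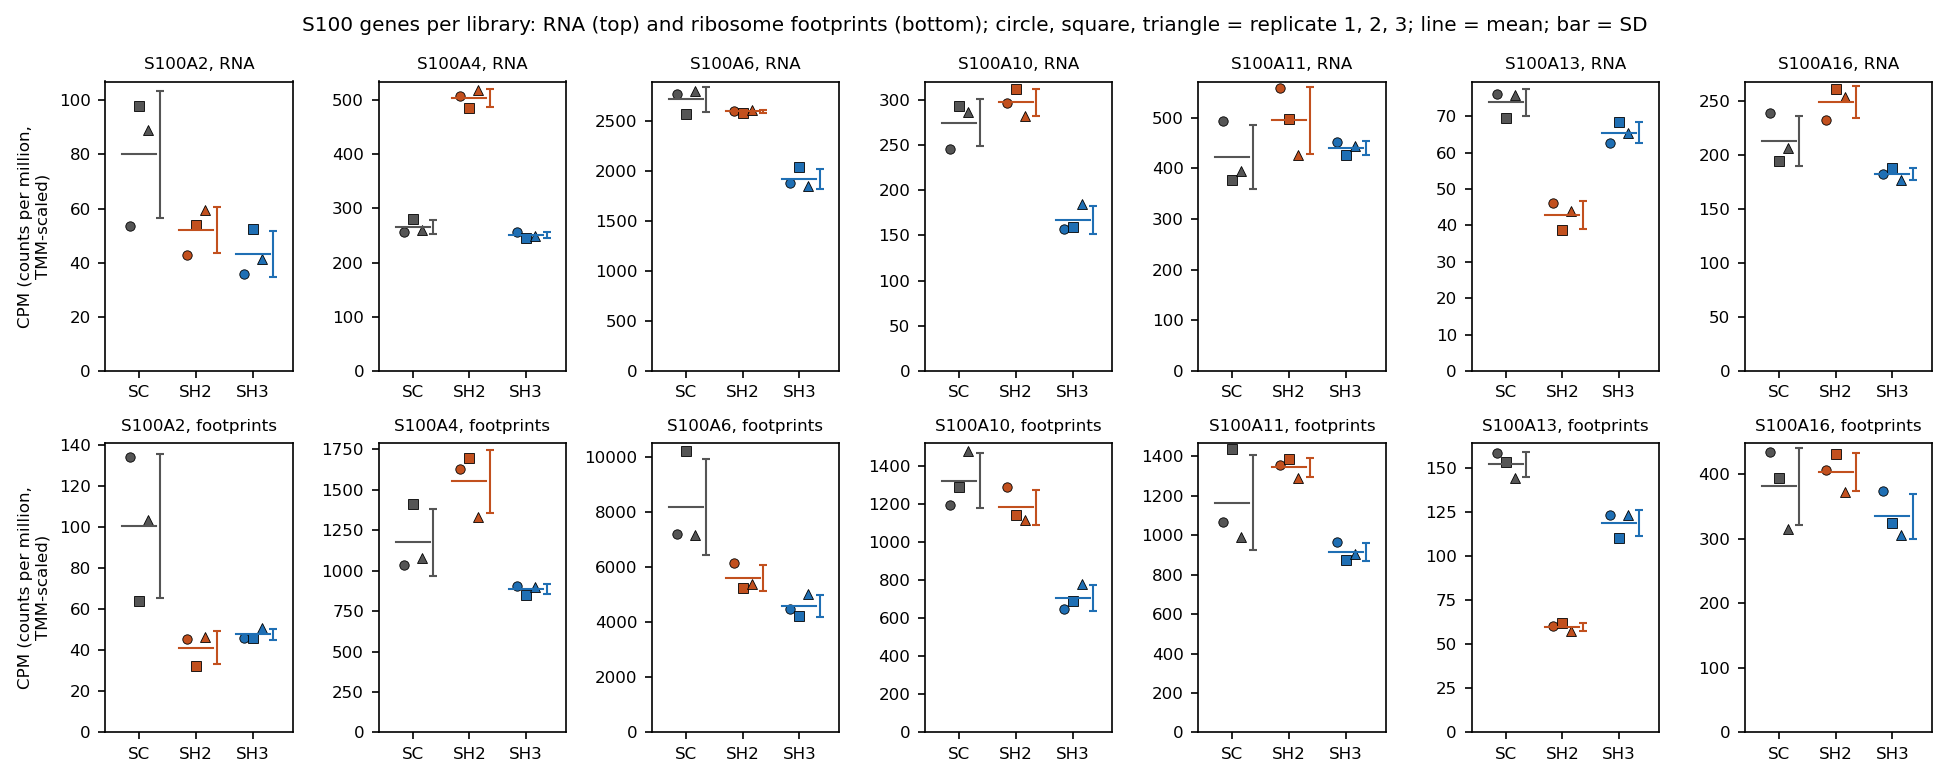
Levels of the 7 measurable S100 genes in each library, as TMM-scaled CPM on linear axes that start at 0, in RNA (top) and ribosome footprints (bottom). Circles, squares and triangles are replicates 1, 2 and 3 of each treatment, lines are means and bars SD. S100A4 RNA in SH2 lies between 486 and 519 CPM, above all SC and SH3 libraries, and S100A13 lies lowest in SH2 in both kinds of library.

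S100A4, which binds non-muscle myosin IIA and is known from metastasis, rose in RNA with 1 hairpin, SH2. It was the only gene of the 7 tested to do so in the TMM-scaled edgeR fit without a replicate block. With the replicate block, S100A11 (0.23, edgeR adjusted p = 0.0455) and S100A16 (0.23, 0.0495) were also called higher in SH2 RNA. Both were called higher there with plain library totals too (0.33, 0.022, and 0.32, 0.00628). RNA of S100A4 was at 257, 281 and 259.7 CPM in the 3 SC libraries, at 507, 486 and 519 in SH2, and at 257, 245 and 249.8 in SH3. All SH2 libraries lay above all others, by 0.92 ± 0.085 on the log2 scale against SC (± SE, edgeR adjusted p = 8.13e-07), whereas SH3 differed from SC by -0.085 (adjusted p = 0.414). Footprints of S100A4 were at 1032, 1414 and 1080.4 CPM in SC, 1625, 1696 and 1332 in SH2, and 906, 849.8 and 898 in SH3. The SH2 and SC footprint values overlapped, and all SH3 values lay below SC. The footprint change was 0.40 ± 0.14 in SH2 (edgeR adjusted p = 0.0313) and -0.41 ± 0.14 in SH3 (adjusted p = 0.0348). Compared directly, SH2 stood above SH3 by 1.01 in RNA and by 0.81 in footprints (edgeR adjusted p = 1.36e-06 and 0.000851). The footprint call in SH2 was lost without SC replicate 1 (0.32, adjusted p = 0.0833), SC replicate 3 (0.35, 0.107), SH2 replicate 1 (0.38, 0.0839) or SH2 replicate 2 (0.34, 0.109). That in SH3 was lost without SC replicate 2 (-0.25, adjusted p = 0.163) or any SH3 replicate (-0.41, 0.0729, without replicate 1, -0.37, 0.123, without replicate 2, and -0.41, 0.0844, without replicate 3). RefSeq gene models of S100A4 and S100A5 overlap on the same strand, and S100A5 had 22 to 104 RNA counts per library against 5849 to 14585 for S100A4.

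S100A6, also called calcyclin and a partner of the ubiquitin-ligase adaptor CACYBP, took more counts than any of the other 7 genes in every library, a number that also depends on transcript length. Its RNA was at 2774, 2568 and 2805 CPM in SC, at 2604, 2582 and 2609 in SH2, and at 1881, 2038 and 1852 in SH3. SH2 stayed within the SC range, with a change of -0.064 ± 0.088 (edgeR adjusted p = 0.544), and all SH3 libraries lay below the others, with a change of -0.50 ± 0.088 (adjusted p = 0.000348). Footprints of S100A6 were at 7230, 10222 and 7177 CPM in SC, 6146, 5260 and 5403 in SH2, and 4495, 4233 and 5015 in SH3. Here both hairpins lay below SC, by -0.55 ± 0.15 in SH2 (edgeR adjusted p = 0.00627) and by -0.84 ± 0.15 in SH3 (adjusted p = 0.000433). SC replicate 2, the shallowest SC footprint library with 2486598 counts, was the highest, and without it the SH2 change was -0.36 (adjusted p = 0.0332). The hairpins differed from each other in RNA, by 0.43 (edgeR adjusted p = 0.00164), and not past the threshold in footprints, by 0.29 ± 0.15 (adjusted p = 0.162). The 8 genes together, of which S100A6 held the most counts, made up 0.382% to 0.396% of RNA counts in SC, 0.427% to 0.442% in SH2 and 0.307% to 0.323% in SH3, and 1.10% to 1.43%, 0.958% to 1.09% and 0.728% to 0.841% of footprint counts. S100A6 alone made up 0.255% to 0.270% of RNA counts in SC and 0.263% to 0.268% in SH2, so the higher summed share in SH2 RNA came largely from other members.

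S100A10, the p11 subunit that joins annexin A2 at the cell membrane, fell in SH3 and did not pass the test in SH2. RNA of S100A10 was at 245, 293 and 286 CPM in SC, at 297, 312 and 283 in SH2, and at 158, 159 and 185 in SH3. Its footprints were at 1195, 1291 and 1479 CPM in SC, at 1288, 1145 and 1117 in SH2, and at 649.8, 691 and 781 in SH3. In both kinds of library SH2 overlapped SC and every SH3 value lay below every other. The SH3 change was -0.72 ± 0.10 in RNA (edgeR adjusted p = 5.61e-05) and -0.90 ± 0.13 in footprints (adjusted p = 0.000101). In SH2 the values were 0.11 ± 0.10 (adjusted p = 0.341) and -0.16 ± 0.13 (adjusted p = 0.336). The direct difference between the hairpins was 0.83 in RNA and 0.74 in footprints (edgeR adjusted p = 3.10e-05 and 0.000815).

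S100A11, which binds annexin A1, passed no test against SC in the TMM-scaled edgeR fits of all libraries without a replicate block. With plain library totals it was called higher in SH2 RNA (0.33, edgeR adjusted p = 0.022). In RNA it was at 494, 377 and 395 CPM in SC, at 559, 498 and 426 in SH2, and at 452, 426 and 443 in SH3, and the 3 groups overlapped. Its footprints were at 1067, 1440 and 991 CPM in SC, 1356, 1387 and 1289 in SH2, and 967, 877 and 904 in SH3, so that SH3 lay below both other groups while SH2 fell inside the wide SC range. RNA changed by 0.23 ± 0.12 in SH2 and 0.063 ± 0.12 in SH3 (edgeR adjusted p = 0.111 and 0.683), and footprints by 0.21 ± 0.14 and -0.35 ± 0.14 (adjusted p = 0.247 and 0.0647). With the replicate block it was called in SH2 RNA (0.23, edgeR adjusted p = 0.0455) and in SH3 footprints (-0.33, 0.0490), although the numbers of SC and SH3 were not found to pair. Between the hairpins, footprints differed by 0.55 ± 0.14 (edgeR adjusted p = 0.00980, and 0.52 with 0.0501 without SH3 replicate 2). Calls appeared on leaving out single libraries: RNA in SH2 without SC replicate 1 (0.34, adjusted p = 0.0185), footprints in SH2 without SC replicate 2 (0.39, 0.0201), and footprints in SH3 without SC replicate 1 (-0.39, 0.0419) or SC replicate 3 (-0.44, 0.0417). RefSeq lists 10 pseudogenes of S100A11, none of them in the deposited table, and how reads matching several places were counted is not given in the sources used here, so its level is uncertain.

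S100A13, which helps to carry FGF1 and interleukin-1 alpha out of the cell by a route that bypasses the secretory pathway, fell in SH2 in RNA and in footprints. Its RNA was at 76.2, 69.6 and 76.0 CPM in SC, at 46.2, 38.7 and 43.9 in SH2, and at 62.6, 68.4 and 65.5 in SH3. Its footprints were at 158, 153 and 144 CPM in SC, at 60.4, 61.8 and 57.3 in SH2, and at 123, 110.25 and 123 in SH3. The 3 groups did not overlap in either kind of library, with SC highest and SH2 lowest. In SH2 the change was -0.78 ± 0.097 in RNA (edgeR adjusted p = 1.06e-05) and -1.34 ± 0.13 in footprints (adjusted p = 1.60e-06). In SH3 it was -0.17 ± 0.096 in RNA (adjusted p = 0.140) and -0.36 ± 0.13 in footprints (adjusted p = 0.0373). SH2 stood below SH3 by -0.61 in RNA and -0.99 in footprints (edgeR adjusted p = 0.000266 and 8.36e-05). The SH3 footprint call was lost on leaving out any one SC library, any one SH3 library or SH2 replicate 3, with values from -0.38 to -0.30 and adjusted p from 0.0501 to 0.159, while SH3 RNA was called without SH2 replicate 2 (-0.21, 0.0444). RefSeq gene models of S100A13 overlap S100A1, which had at most 2 counts per library, and CHTOP, both on the opposite strand, and whether the counting used strand is not given in the sources used here. CHTOP RNA changed by 0.12 and 0.13 without a call (edgeR adjusted p = 0.293 and 0.277), and its footprints rose by 0.79 and 0.73 (adjusted p = 0.000595 and 0.00165), opposite in sign to S100A13.

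S100A2, a mostly nuclear member that is widely lost in breast tumours, fell with both hairpins in RNA and in footprints. Its RNA was at 53.4, 97.8 and 88.9 CPM in SC, at 42.8, 53.8 and 59.4 in SH2, and at 35.9, 52.5 and 41.3 in SH3. SC replicate 1 was low and overlapped SH2, while all SH3 values lay below SC. The RNA change was -0.62 ± 0.20 in SH2 (edgeR adjusted p = 0.0144) and -0.89 ± 0.20 in SH3 (adjusted p = 0.00199). Its footprints were at 134, 64.0 and 103.5 CPM in SC, at 45.5, 32.2 and 46.3 in SH2, and at 46.2, 46.2 and 50.8 in SH3, so that every hairpin library lay below every SC library. The footprint change was -1.31 ± 0.22 in SH2 (edgeR adjusted p = 0.000221) and -1.09 ± 0.22 in SH3 (adjusted p = 0.00141). These footprint values rest on 79 to 828 counts per library. The RNA call in SH2 was lost without SC replicate 2 (-0.45, adjusted p = 0.0684), SC replicate 3 (-0.54, 0.0525) or SH2 replicate 1 (-0.50, 0.0594). The difference between the hairpins did not pass the threshold, at 0.27 ± 0.20 in RNA and -0.22 ± 0.23 in footprints (adjusted p = 0.306 and 0.526).

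S100A16, a widely expressed member that binds calcium weakly, lay slightly higher in SH2 RNA and slightly lower in SH3 RNA. Neither change was called in the TMM-scaled edgeR fit of all 9 RNA libraries without a replicate block. RNA of S100A16 was at 238, 194 and 206 CPM in SC, at 232, 261 and 254 in SH2, and at 183, 187 and 176 in SH3. SH3 lay below all other libraries, and SH2 overlapped SC. The changes were 0.22 ± 0.096 and -0.23 ± 0.096 (edgeR adjusted p = 0.0557 and 0.0630, the first 0.0495 with the replicate block), and the direct difference between the hairpins was 0.45 ± 0.096 (adjusted p = 0.00235). Footprints of S100A16 ran from 306 to 434 CPM over all 9 libraries, with changes of 0.083 ± 0.14 and -0.19 ± 0.14 (edgeR adjusted p = 0.665 and 0.325). The RNA call depended on single libraries and on the settings. SH2 was called without SC replicate 1 (0.29, edgeR adjusted p = 0.0152) or SH2 replicate 1 (0.27, 0.0435), and with plain library totals (0.32, 0.00628). SH3 was called without SC replicate 2 (-0.29, 0.0349), SH2 replicate 2 (-0.26, 0.0345) or SH2 replicate 3 (-0.26, 0.0364). It was also called with DESeq2 (-0.25, adjusted p = 0.0253), and in edgeR with DESeq2 size factors (-0.25, 0.0386) or only the 2 treatments (-0.26, 0.0351).

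S100A14, typical of epithelial cells, was not measurable and was tested in no comparison. It had 0, 2 and 5 RNA counts in SC, 3, 2 and 0 in SH2 and 0, 2 and 3 in SH3, and 0 counts in all 9 footprint libraries. A footprint count of 0 allows up to 3 counts, which is 0.492 CPM in the deepest footprint library and 1.80 CPM in the shallowest. No difference in S100A14 was detectable at this depth.

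The hairpins were also compared directly. In RNA, 4 of the 7 genes (S100A4, S100A6, S100A10 and S100A16) were called higher in SH2 than in SH3 and S100A13 was called lower, beside 39.3% of all genes called (18.9% higher, 20.4% lower). In footprints, S100A4, S100A10 and S100A11 were called higher and S100A13 lower, 4 of 7 beside 23.8% of genes (12.1% higher, 11.6% lower). The median difference of the 7 genes was 0.43 in RNA against 0.0047 over all genes, and 0.29 against 0.0038 in footprints. S100A4 and S100A13, both in the main cluster on chromosome 1, stood on opposite sides of this comparison in both kinds of library.

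**Figure D2:**
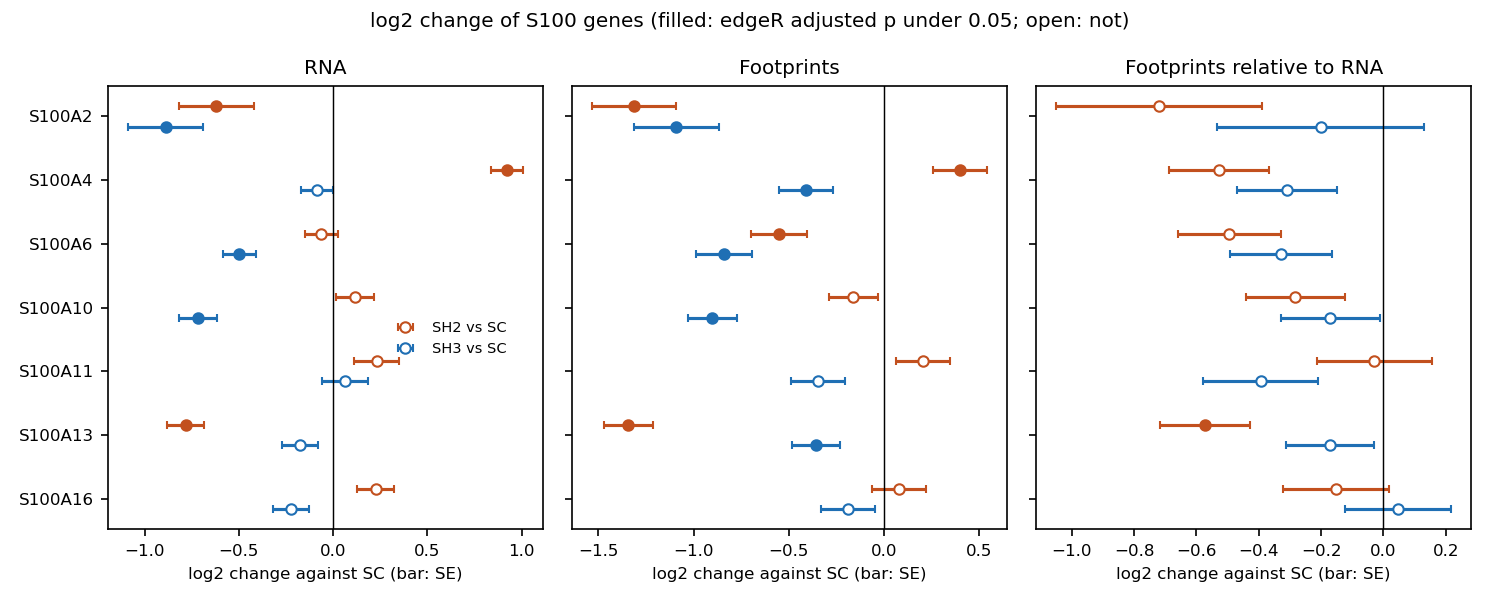
log2 changes against SC of the 7 tested S100 genes in RNA (left), footprints (middle) and footprints relative to RNA (right), with SH2 in orange and SH3 in blue. Bars are SE, filled points have an edgeR adjusted p under 0.05 and open points do not. S100A2 lies below 0 for both hairpins in RNA and footprints, while S100A4 lies on opposite sides of 0 in footprints.

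Footprints relative to RNA, called translational efficiency in ribosome profiling, were tested as the difference between the footprint change and the RNA change in 1 edgeR fit of all 18 libraries. One of the 7 genes was called in SH2, S100A13, which was lower, beside 3.9% of 12531 genes called (1.44% higher, 2.46% lower). None was called in SH3, beside 0.686%, and none between the hairpins, beside 0.016%. At an unadjusted p under 0.05, 4 of the 7 passed in SH2 (S100A2, S100A4, S100A6 and S100A13), beside 17.9% of genes, 1 in SH3 (S100A11), beside 12.6%, and 1 between the hairpins (S100A13), beside 11.7%. With DESeq2 the counts of calls were 3, 0 and 0, beside 8.8%, 3.93% and 2.28% of the genes to which it gave an adjusted p. All 7 values lay below 0 in SH2, with a median of -0.49 against -0.019 over all genes, of which 52% lay below 0. In SH3 6 of 7 lay below 0, with a median of -0.20 against -0.044 over all genes, of which 54.8% lay below 0. Both comparisons rest on the SC libraries, in which SC replicate 2 gave the highest S100A4, S100A6 and S100A11 footprints.

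The ratios below divide the footprint CPM by the RNA CPM of the library with the same replicate number. In SC and SH2 the RNA deviations of replicates 1 and 2 went against the footprints of their own number (r = -0.49 and -0.46 in SC, -0.30 and -0.31 in SH2) and with those of the other number (0.58 and 0.46, 0.56 and 0.50), so the spread of these ratios within a treatment depends on the numbering. The edgeR test does not use the numbers. The ratio of S100A13 was 2.08, 2.20 and 1.90 in SC, 1.31, 1.60 and 1.30 in SH2, and 1.96, 1.61 and 1.88 in SH3. All SH2 ratios lay below all others, also when each footprint library was divided by each RNA library of its treatment (1.24 to 1.60 in SH2, 1.90 to 2.27 in SC and 1.61 to 1.96 in SH3). The change in SH2 was -0.57 ± 0.14 (edgeR adjusted p = 0.0295), and in SH3 -0.17 ± 0.14 (adjusted p = 0.684), with a difference between the hairpins of -0.40 ± 0.15 (adjusted p = 0.273). This call was lost without both libraries of SC replicate 1 (-0.54, adjusted p = 0.0734), SC replicate 2 (-0.54, 0.0632), SC replicate 3 (-0.62, 0.0837), SH2 replicate 1 (-0.52, 0.109), SH2 replicate 3 (-0.52, 0.152) or SH3 replicate 3 (-0.57, 0.0575).

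For S100A4 the ratios were 4.02, 5.03 and 4.16 in SC, 3.21, 3.49 and 2.57 in SH2, and 3.53, 3.46 and 3.60 in SH3. Every hairpin ratio lay below every SC ratio, whereas over all combinations of libraries SH2 stayed below SC (2.57 to 3.49 against 3.67 to 5.51) and SH3 overlapped it (3.31 to 3.69), with changes of -0.53 ± 0.16 and -0.31 ± 0.16 that missed the threshold (edgeR adjusted p = 0.0670 and 0.441). With DESeq2, S100A4 was called in SH2 (-0.53, adjusted p = 0.0202), as was S100A6 (-0.50, 0.0480). The ratio of S100A6 was 2.61, 3.98 and 2.56 in SC, 2.36, 2.04 and 2.07 in SH2, and 2.39, 2.08 and 2.71 in SH3, where SH2 lay below SC, as it did over all combinations (2.02 to 2.38 against 2.56 to 3.98), and SH3 overlapped it. In edgeR its changes were -0.49 ± 0.16 (adjusted p = 0.0993) and -0.33 ± 0.16 (adjusted p = 0.419).

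For S100A2 the number-matched SC ratios ran from 0.655 (replicate 2) to 2.52 (replicate 1), the 2 numbers whose RNA and footprints went against each other, so this range is not a measure of replicate error. Its SH2 change of -0.72 ± 0.33 (edgeR adjusted p = 0.253) was called only without both libraries of SC replicate 2 (-1.12, adjusted p = 0.0314), among the replicates left out in turn. S100A10 changed by -0.28 ± 0.16 and -0.17 ± 0.16, S100A11 by -0.029 ± 0.18 and -0.39 ± 0.18, and S100A16 by -0.15 ± 0.17 and 0.047 ± 0.17 in SH2 and SH3, with edgeR adjusted p from 0.369 to 0.966. S100A11 in SH2 was the value nearest to 0 of the 7 there.

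**Figure D3:**
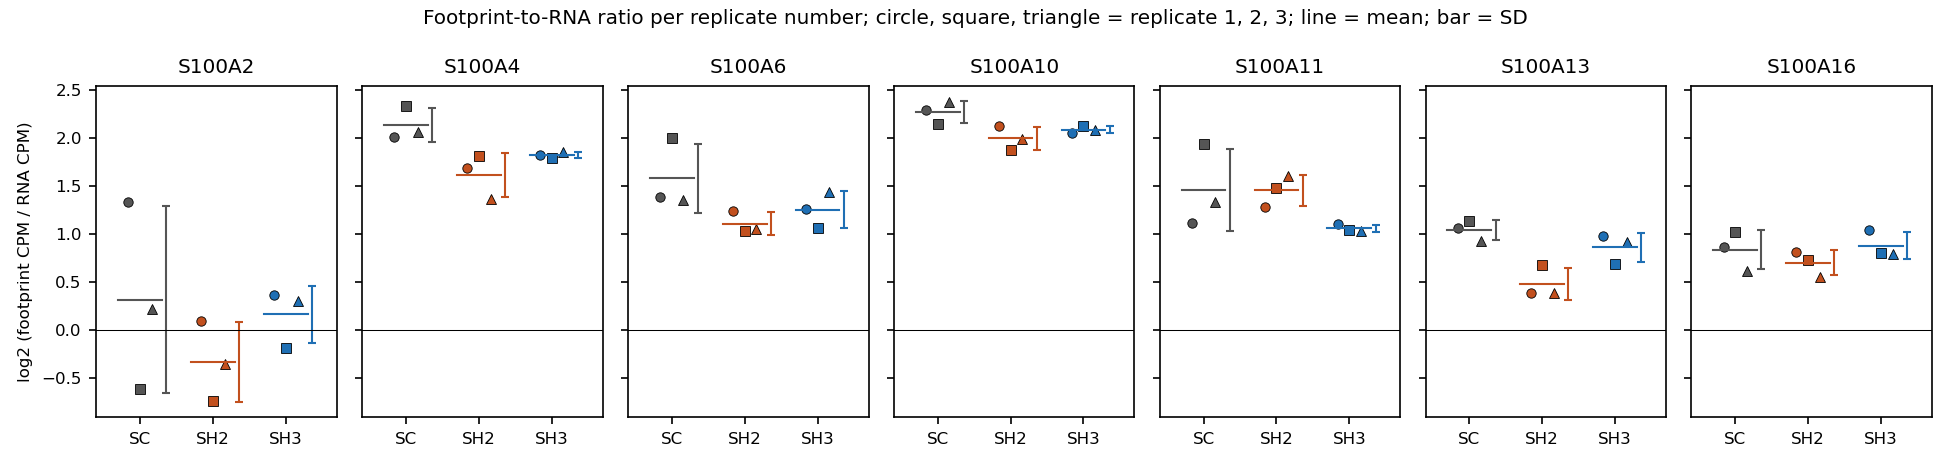
log2 ratio of footprint CPM to RNA CPM for each replicate number of each treatment, for the 7 tested S100 genes on a shared axis. Circles, squares and triangles are replicates 1, 2 and 3, lines are means and bars SD. The 3 SH2 points of S100A13 lie below all its SC and SH3 points, and the wide SC range of S100A2, from -0.61 to 1.33, depends on which RNA library each footprint library is divided by.

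Genes of the proteins that S100 members hold moved more than the S100 genes in several cases. Annexin A2 (ANXA2), the membrane-binding partner of S100A10, was at 2758, 2331 and 2628 CPM in SC RNA, at 267, 450.4 and 363 in SH2 and at 1298, 1439 and 1507 in SH3. The log2 change of its RNA was -2.84 ± 0.16 in SH2 and -0.86 ± 0.15 in SH3 (edgeR adjusted p = 1.91e-08 and 0.000316), and that of its footprints -2.90 and -0.85 (adjusted p = 1.07e-07 and 0.00182). ANXA2 was lower in SH2 than in SH3 (-1.97 in RNA, edgeR adjusted p = 7.42e-07), and S100A10 was lower in SH3 than in SH2. AHNAK, the giant scaffold held by the S100A10 and annexin A2 complex, fell in SH2, with changes of -1.51 ± 0.15 in RNA and -2.31 ± 0.36 in footprints (edgeR adjusted p = 1.46e-06 and 0.000117). In SH3 AHNAK had values of -0.14 in RNA and 0.83 in footprints that were not called (adjusted p = 0.439 and 0.0646).

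Of the partners of S100A6, CACYBP fell with both hairpins, with changes of -1.79 and -0.63 in RNA and -2.12 and -0.76 in footprints (edgeR adjusted p = 3.20e-08, 0.000241, 1.03e-06 and 0.00459). Annexin A11 (ANXA11) rose with both, by 0.75 and 0.42 in RNA and 0.42 and 0.46 in footprints (adjusted p = 8.56e-06, 0.00150, 0.0371 and 0.0318). Annexin A1 (ANXA1), the partner of S100A11, rose in SH2 RNA by 0.29 (edgeR adjusted p = 0.0135) and was not called in SH3 RNA (0.21, 0.0729) or in footprints (0.31, 0.0783, and 0.16, 0.401).

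MYH9, the heavy chain of the non-muscle myosin IIA that S100A4 binds, rose with both hairpins, by 1.22 and 1.05 in RNA and by 0.96 and 1.198 in footprints (edgeR adjusted p from 4.41e-07 to 4.66e-05). MDM2, a ubiquitin ligase that binds several S100 proteins, fell in RNA (-2.02 and -0.85, edgeR adjusted p = 3.20e-08 and 6.20e-05), and its footprints fell in SH2 (-2.05, adjusted p = 8.77e-06) and were at -0.57 in SH3 without a call (0.0547).

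The cargo of S100A13 lay at low levels. FGF1 had 20 to 110 RNA counts per library and fell there (-1.74 and -1.63, edgeR adjusted p = 0.000219 and 0.000500), and with 1 to 19 footprint counts it was not tested there. IL1A rose in SH2 RNA by 0.94 and footprints by 1.05, with groups that overlapped (adjusted p = 0.0490 and 0.0238), and was not called in SH3 (0.79 and 0.40, adjusted p = 0.104 and 0.446). AGER, the receptor through which several secreted S100 proteins act, had 2 to 19 RNA counts per library. It fell in SH3 (-1.52 ± 0.46, edgeR adjusted p = 0.0125) and was at -0.77 in SH2 without a call (adjusted p = 0.117).

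**Figure D4:**
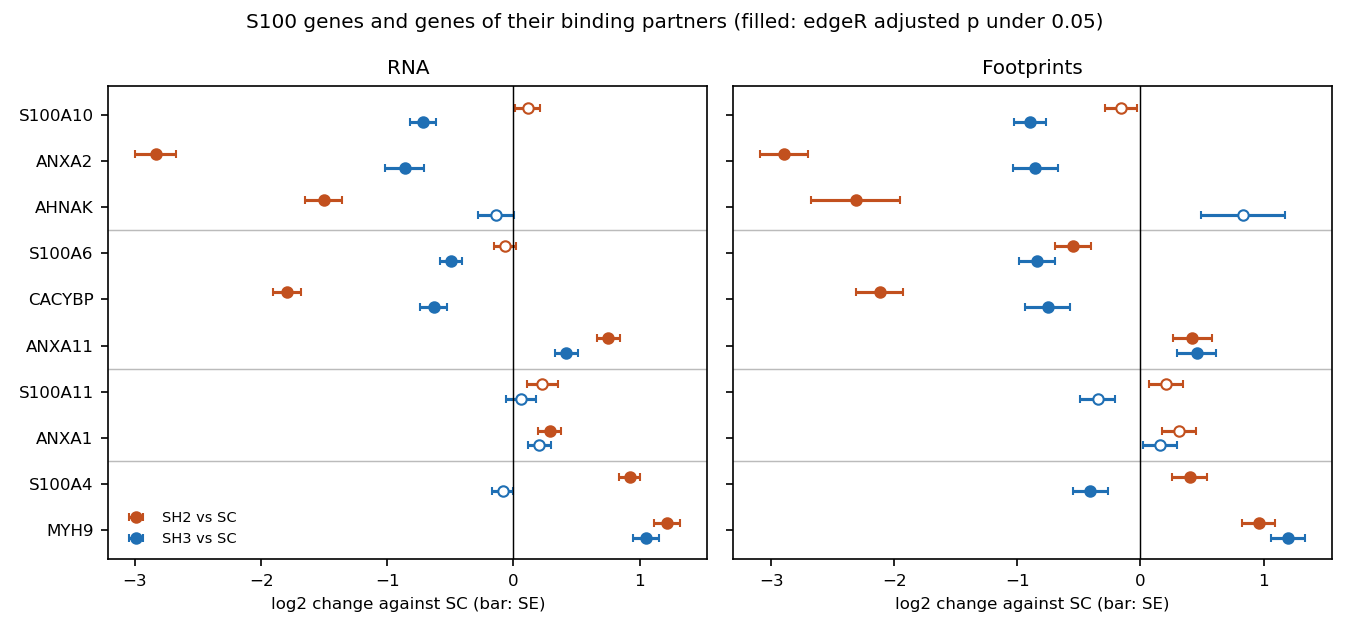
log2 changes against SC of 4 S100 genes, each above the genes of its known partners, in RNA (left) and footprints (right), with SH2 in orange and SH3 in blue. Bars are SE, filled points have an edgeR adjusted p under 0.05 and grey lines part the sets. ANXA2 and CACYBP lie farther below 0 in SH2 than in SH3, AHNAK lies below 0 in SH2 and has an uncalled footprint value above 0 in SH3, and S100A10 and S100A6 lie lower in SH3.

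Counted over the lists of S100-related genes, changes ran both ways, and the lists are small, so their counts are given beside the same shares over all genes and are not read as particular to a list. Of 10 annexins tested in RNA, SH2 had 5 called higher and 2 lower and SH3 had 2 and 3, beside 61.4% and 53% of all genes called, with medians of 0.41 and 0.12, against 0.012 and 0.034 over all genes. Of 9 tested in footprints the counts were 3 and 2 in SH2, and 2 and 2 in SH3, beside 44.2% and 35.9% of all genes. ANXA4 rose with both hairpins in RNA (1.29 and 0.63) and footprints (1.02 and 0.45), and ANXA3 fell in RNA (-0.44 and -0.43) and footprints (-0.83 and -0.48). Of 18 intracellular partners tested in RNA, SH2 had 6 called higher and 8 lower and SH3 had 2 and 5, with medians of -0.18 and -0.030. In footprints the counts among 17 were 5 and 8, and 3 and 4. LGALS3, which encodes galectin-3, rose by 1.03 and 1.12 in footprints. Of 7 receptor genes tested in RNA, SH2 had 2 called higher and 1 lower and SH3 had 1 and 4. MCAM, an adhesion molecule that binds secreted S100 proteins, fell in RNA (-1.29 and -1.14) and footprints (-1.71 and -1.76). BSG (basigin) rose by 0.80 and 0.60 in RNA, and its footprints were at 0.19 and -0.054 without a call.

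Of 13 other S100 genes listed, 10 were in the table and 3 had enough counts to test. S100A3, which lies between S100A4 and S100A2, fell in SH3, with changes of -0.84 ± 0.20 in RNA and -1.18 ± 0.24 in footprints (edgeR adjusted p = 0.00298 and 0.00151), and had values of -0.17 and -0.18 in SH2 without a call. S100A5 rose in RNA by 1.78 and 0.86 (adjusted p = 3.11e-05 and 0.0130), at 22 to 104 counts per library. Its footprints, at 8 to 29 counts, rose in SH2 by 0.88 (edgeR adjusted p = 0.0472). In SH3 they were at 0.18 without a call (0.743). S100P rose in SH2 RNA by 0.83 (adjusted p = 0.0415) from 16 to 44 counts in SC to 49 to 58, and was not called in SH3 (0.59, 0.152). Its scaled SC and SH2 RNA values overlapped, at 1.81 CPM in SC replicate 2 and 1.74 CPM in SH2 replicate 3. Next to each other in the cluster, S100A5 and S100A4 RNA rose in SH2, while S100A3 did not pass the test and S100A2 fell. Gene models of S100A5 and S100A4 overlap on the same strand, and S100A4 had far more counts. Whether reads of S100A4 entered the S100A5 counts was not tested, so these rises may not be separate.

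Across the 9 RNA libraries the member most like another was S100A6 with S100A10 (Pearson r of log2 CPM = 0.889), and the least alike were S100A4 and S100A13 (r = -0.934). Across the 9 footprint libraries S100A4 and S100A11 were closest (r = 0.953). Over all genes tested in RNA, the nearest to each member were FAM174A to S100A4 (r = 0.994), GCH1 to S100A13 (0.992), RILPL2 to S100A6 (0.990), SENP2 to S100A10 (0.987), FOXC1 to S100A16 (0.974), H4C3 to S100A2 (0.960) and PTPRR to S100A11 (0.951). These libraries form 3 groups of 3 that share treatment, so such values describe the group pattern and carry no test.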

How the data were processed

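One deposited table of the whole series was used. Its count columns hold raw, whole-number counts for each gene in each library, deposited without scaling. Its normalized signal columns were made with DESeq2, per the file headers, and were not tested here. Its log2 changes and p-values are the authors' deposited DESeq2 comparisons with SC. Bowtie 1.2.2 and DESeq2 are named in the submitters' processing notes. Genome build, annotation, counting tool, strand setting and DESeq2 version are not given in the sources used here.

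Counts were tested in edgeR 4.0.16 (R 4.3.3) with filterByExpr, TMM scaling and the two-sided quasi-likelihood test, in 1 fit of 9 IN libraries, 1 of 9 RPF libraries and, for translational efficiency, an interaction contrast over 18 libraries. P-values were adjusted by Benjamini-Hochberg over all genes tested. SE is the absolute log2 change divided by the square root of F. A count of 3 is the floor and covers counting error only, as no molecular identifiers are described. edgeR's common coefficient of variation between replicates was 11.6% for RNA and 15.1% for footprints. Replicates differed beyond counting noise (chi-square per degree of freedom 3.55 to 58.7). Deviations from the group means of same-numbered SC and SH2 libraries correlated at 0.30 to 0.36 in RNA and 0.25 to 0.30 in footprints, over 0.1 in 3 of 3 pairs each, so these numbers were taken to pair. SC with SH3 and SH2 with SH3 passed in at most 2 of 3 pairs and were not. The scripts were tested on simulated data with 200 changed genes. There the test relative to RNA recovered 8 of 50 genes at a true 1.5-fold change in SH2 and 23 of 50 at 2-fold. For footprints 19 of 50 were recovered at 1.5-fold, and for RNA 31 of 50. A value without a call is therefore no evidence that a gene did not change. Alternatives were DESeq2 1.42.0, other scaling, no filter, other thresholds, single replicates left out and a replicate block. In the fit of 18 libraries, leaving out a replicate removed both its RNA and its footprint library.

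All 8 members are named. From lists of 13 other S100 genes, 12 annexins, 19 intracellular partners and 8 receptors, known partners of members were named, and per list up to 3 genes with the largest change called alike with both hairpins, and other S100 genes with a mean of 10 or more counts. One gene of the partner list is counted with it and not reported here by name. Members and lists were chosen with earlier results of these data known. Levels are not compared between genes, since lengths were not used.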

Additional observations from a re-analysis of the deposited data

Results flagged for a closer look

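The 2 hairpins gave different changes for several S100 genes, by the direct edgeR test of SH2 against SH3 over the 9 libraries of each kind. In RNA the SH2 change exceeded the SH3 change for S100A4 by 1.01 (adjusted p = 1.36e-06), for S100A10 by 0.83 (3.10e-05), for S100A16 by 0.45 (0.00235) and for S100A6 by 0.43 (0.00164), all on the log2 scale. For S100A13 RNA the difference was -0.61 (0.000266). In footprints the difference was 0.81 for S100A4 (edgeR adjusted p = 0.000851), 0.74 for S100A10 (0.000815), 0.55 for S100A11 (0.00980) and -0.99 for S100A13 (8.36e-05). In each of these, all 3 SH2 libraries lay on the same side of all 3 SH3 libraries. This adds no support, since the results were picked by a test on the same libraries. The share of all genes that lie apart in this way was not computed. The S100A11 footprint call was lost without SH3 replicate 2 (0.52, edgeR adjusted p = 0.0501). Beside them, FBL RNA was at 5.67 ± 5.09 CPM with SH2 and, with SH3, at 3.49 ± 0.612 CPM (SD, n = 3 each). The SH2 mean rests on replicate 3, at 11.2 CPM against 1.26 and 4.52, and the direct FBL difference was not called (0.72, edgeR adjusted p = 0.242). The part of that level in these differences was not tested.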

How the results depend on the processing

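Over the alternatives tried for the S100 genes, 946 of 1008 single-gene results kept their side of the threshold, 937 of them with the same sign and 9 with the other sign and no call, 39 lost a call, 23 gained one and 0 called values reversed. Values with no call close to 0, such as S100A4 RNA in SH3 (-0.14 to 0.00094) and S100A11 relative to RNA in SH2 (-0.20 to 0.20), crossed it. Members called in RNA numbered 5 in SH2 with plain library totals, and 5 with the replicate block, beside 65.7% of genes. In SH3 RNA 5 were called with only the 2 treatments compared. In SH3 footprints 3 were called at adjusted p under 0.01, 3 with plain library totals and 3 with only the 2 treatments. Shares of all genes with plain totals or only the 2 treatments are not reported here for RNA and footprints. Those counts are therefore not read as results about the members. Relative to RNA in SH2, 3 were called with DESeq2, 2 with plain library totals, and 0 at 0.01, without a filter, with the replicate block by lysate or with only the 2 treatments. Leaving out each replicate of a treatment in turn gave 2 to 5 members called in SH2 RNA, 3 to 5 in SH3 RNA and 5 to 5 between the hairpins. Beside them, 6893 to 7780 of all genes were called in SH2 RNA, 5661 to 6920 in SH3 RNA and 3726 to 5424 between the hairpins. In footprints 3 to 5 members were called in SH2, 3 to 5 in SH3 and 3 to 4 between the hairpins. Of all genes, 3740 to 4807 were called in SH2 footprints and 2645 to 3771 in SH3 footprints. Relative to RNA in SH2, 0 to 1 members were called, where both the RNA and the footprint library of a replicate were left out. Over all genes, calls between the hairpins in RNA (4993) came to 3152 at 0.01, in SH3 footprints (3719) to 2304 and between the hairpins in footprints (2459) to 1301. Relative to RNA in SH2 (489) they came to 100 at 0.01, 910 with DESeq2, 191 with the block and 184 with only the 2 treatments. In SH3 (86) they came to 13, 349, 23 and 46, and between the hairpins (2) to 0, 219, 0 and 36, and to 35 without a filter. Leaving out both libraries of each replicate gave 110 to 555, 10 to 244 and 0 to 51 for these 3 comparisons relative to RNA. Between the hairpins in footprints, leaving out each footprint library gave 1541 to 2928. The cause was not tested, except that fewer samples enter a fit of only 2 treatments. Deviations of same-numbered libraries correlated at -0.083 to 0.43 in RNA (7 of 9 over 0.1, 7 best with their own number), -0.12 to 0.31 in footprints (5 of 9) and -0.49 to 0.50 between the RNA and footprints of a number (5 of 9). Every pair passed 0.1 for SC with SH2 only, in RNA and in footprints, among comparisons of treatments. With the replicate block, S100A11 (0.23, edgeR adjusted p = 0.0455) and S100A16 (0.23, 0.0495) were called in SH2 RNA and S100A11 in SH3 footprints (-0.33, 0.0490). S100A13 relative to RNA was not called in SH2 with the block by lysate (-0.56, edgeR adjusted p = 0.101). That block joins RNA and footprints by number, and in SC and SH2 those of replicates 1 and 2 went against each other. This lost call therefore depends on the numbering.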

Other observations

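In the authors' deposited table, the DESeq2 changes of the S100 genes had the same direction and the same side of 0.05 as those above for all 7 tested members, except S100A16 RNA in SH3, which the authors' deposited table calls lower (-0.25, adjusted p = 0.0305). The further measure in the authors' deposited table, named RD, holds the same log2 change for SH2 and SH3 in all 17017 genes and was not used.

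Other S100 genes often named in inflammation were near 0 in these cells. S100A8 and S100A9 had at most 3 counts in any of the 18 libraries, S100A7 at most 2 and S100B at most 1. Among genes of S100 receptors, MCAM was at 87.7 ± 21.7 CPM and BSG at 276 ± 28.6 CPM in SC RNA (SD, n = 3).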
